A study of Mus musculus with 960 samples.

Results

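The 7 genes examined here are those through which the mammary gland senses hormones, read from the open chromatin map of a mouse breast tumour. They were Esr1, Pgr, Nr3c1, Prlr, Ghr, Stat5a and Stat5b, taken from a list of names. Of the 50000 deposited accessible windows of 500 bp, 43 (0.0860%) had at least 1 base in these 7 of 22350 protein-coding genes or within 20 kb of them. Every one of the 7 genes had a window with its summit within 1 kb of an annotated start site, a start-site window, as did 52.4% of all protein-coding genes. All 7 have at least 1 CpG-rich start site, as defined below, and 82.6% of all protein-coding genes of that class had a start-site window. There were 6 windows near both Stat5a and Stat5b, which are neighbours, and these were counted once in the 43. Windows of 1 called peak can overlap, and merging overlapping ones left 33 regions.

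The cells came from a primary mammary tumour of the PyMT mouse, in which the polyoma middle T oncogene, driven by the mouse mammary tumour virus promoter (MMTV-PyMT), transforms the mammary epithelium. They were fixed, permeabilised, stained and cut with Tn5 transposase before single cells were sorted into wells, 8 plates of 96 wells with antibodies to EpCAM, found on epithelial cells, and to HIF1α, the subunit of HIF that oxygen degrades, and 2 plates with antibodies to EpCAM and to CD45, found on leukocytes. All cells came from such a transgenic tumour, no animal was named in the labels, and no wild-type gland was among the samples. The list of windows is a single one, called on pooled cells, so it is 1 sample without replicates, and no test and no comparison between wells or stains was made. Read depth behind a window is unknown, and a window present in few cells cannot be told apart from one weakly open in many.

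Oestrogen and progesterone act on the gland through the nuclear receptors encoded by Esr1 and Pgr, which a subset of luminal cells carries, and these cells pass the signal on to their neighbours by secreted factors. Prolactin and growth hormone bind the cytokine receptors Prlr and Ghr, whose kinase JAK2 phosphorylates STAT5A and STAT5B. The STAT5 proteins then enter the nucleus, bind the palindrome TTCNNNGAA, and with the glucocorticoid receptor (Nr3c1) switch on alveolar growth and milk protein genes.

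The 5 stretches of 200 bases that follow, around summits of start-site windows, are shown because they differ in CpG content. Each is the plus strand of the mouse build mm9, 5′ to 3′, with CpG dinucleotides in capitals. Esr1 and Stat5b are transcribed from the minus strand, and Pgr, Prlr and Stat5a from the plus strand.
Stat5b start, chr11:100711396-100711595: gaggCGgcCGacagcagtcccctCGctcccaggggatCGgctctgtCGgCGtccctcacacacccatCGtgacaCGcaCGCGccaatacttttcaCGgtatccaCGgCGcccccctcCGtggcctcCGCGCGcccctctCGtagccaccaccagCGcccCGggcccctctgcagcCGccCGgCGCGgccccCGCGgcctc
Stat5a start, chr11:100720153-100720352: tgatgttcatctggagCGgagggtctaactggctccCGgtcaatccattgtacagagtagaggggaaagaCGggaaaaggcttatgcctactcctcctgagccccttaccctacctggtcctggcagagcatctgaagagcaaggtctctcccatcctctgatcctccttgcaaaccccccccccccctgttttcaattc
Esr1 start, chr10:5734009-5734208: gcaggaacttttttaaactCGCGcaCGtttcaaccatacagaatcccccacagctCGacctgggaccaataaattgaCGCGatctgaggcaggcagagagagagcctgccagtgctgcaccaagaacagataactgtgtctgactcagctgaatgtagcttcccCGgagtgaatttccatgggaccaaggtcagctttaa
Prlr start, chr15:10107832-10108031: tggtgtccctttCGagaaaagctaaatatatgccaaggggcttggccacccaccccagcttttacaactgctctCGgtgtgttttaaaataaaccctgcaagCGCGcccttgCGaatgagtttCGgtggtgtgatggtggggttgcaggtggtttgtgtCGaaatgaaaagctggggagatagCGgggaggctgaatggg
Pgr start, chr9:8901654-8901853: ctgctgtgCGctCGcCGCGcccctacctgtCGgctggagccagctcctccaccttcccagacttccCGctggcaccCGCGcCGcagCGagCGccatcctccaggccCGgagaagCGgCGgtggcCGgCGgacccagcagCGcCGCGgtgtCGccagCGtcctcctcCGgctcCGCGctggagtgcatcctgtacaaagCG

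The stretch at Stat5b held 26 CpG at 74.5% GC and the one at Pgr, in its first exon, held 25 CpG at 73.5% GC. The stretch at Stat5a held 3 CpG at 55.0% GC, that at Esr1 held 7 at 50.5% and that at Prlr held 8 at 52.0%. Start-site windows of these hormone genes included CpG-dense and CpG-poor sequence, which is how these stretches were chosen. Each stretch lay within 1 kb of a start site of its gene, but none contained one.

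Of the 7 genes, 6 had 2 or more start-site windows and 5 had 3 or more, where 25.8% and 9.42% of all protein-coding genes did. Such counts can rise with the number of annotated start sites, 52 for these genes and 69930 for all 22350 protein-coding genes. At the outermost start alone, Pgr and Stat5b had 1 window, Esr1, Prlr and Ghr 2, Stat5a 3 and Nr3c1 4. The counts over all starts include overlapping windows. Once overlapping ones were merged, a step chosen after the data were seen, Stat5b had 1 start-site region and the other 6 genes had 2 each, as 16.9% of all protein-coding genes had at least 2, and none of the 7 had 3. At least 1 window in the gene body or its 20 kb flanks was found for 72.4% of all protein-coding genes, with a median of 2, and numbered 2 at Pgr, 5 at Prlr, 8 at Esr1, Nr3c1 and Ghr, and 9 at Stat5a and Stat5b. These genes differ widely in length, and per 100 kb of gene and flanks the density ran from 1.84 windows at Esr1 and 1.90 at Pgr through 2.11 at Prlr and 2.62 at Ghr to 6.62 at Nr3c1, 8.18 at Stat5b and 13.7 at Stat5a. The median over all protein-coding genes was 2.92, so the oestrogen, progesterone, prolactin and growth hormone receptors lay under it, and the glucocorticoid receptor and both Stat5 genes over it. Stat5a stood above 92.4% of all genes by this measure and Esr1 above 38.1%. The densities count overlapping windows separately. With overlapping windows merged, the counts were 2 at Pgr, 4 at Prlr and Nr3c1, 6 at Esr1 and Ghr, and 8 at Stat5a and Stat5b. Densities after merging were not computed.

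**Figure D1:**
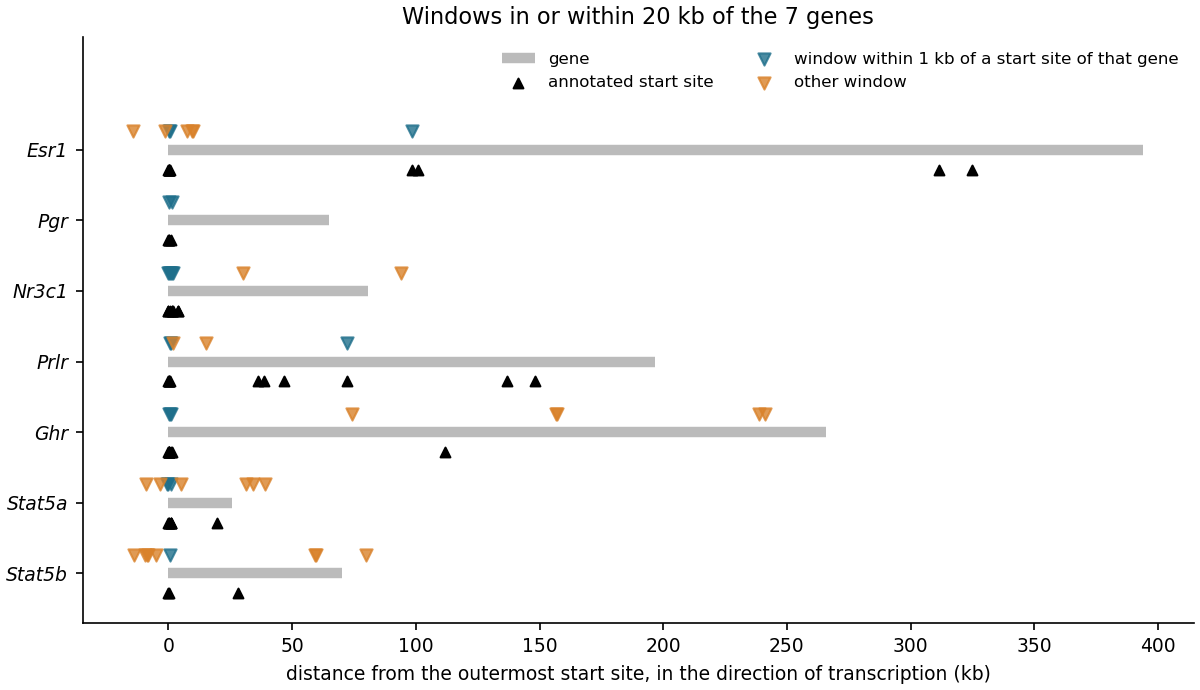
Each row is 1 gene drawn in its direction of transcription, with distance from its outermost start site in kb on the x axis. Grey bars are the genes, black triangles below them annotated start sites, blue triangles above them start-site windows of that gene and orange triangles other windows. All 7 genes have windows beside their outermost starts, and the last 295217 bp of Esr1, 123916 bp of Prlr and 63422 bp of Pgr hold none.

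Of the 43 windows, 25 (58.1%) had their summit within 1 kb of a start site of any protein-coding gene and are called promoter windows, against 37.6% of all windows. Another 14 (32.6%) lay in introns and 4 (9.30%) between genes, against 28.1% and 31.5% of all windows, and none had its summit in an exon away from a start site. Of the 25 promoter windows, 21 belonged to the 7 genes themselves and the other 4 to their neighbours Stat3 and Ghdc. The number in a window's name identifies the called peak, and the 43 windows came from 30 called peaks. Calls that kept 2 or more windows, a sign of several summits in 1 call, gave 21 of the 43 windows (48.8%) and 39.8% of all windows. Named calls ran up to 109284 along the genome and 38400 of them (35.1%) had a kept window. A stretch without windows may therefore hold weaker called peaks, and the numbers skipped between neighbouring windows give an upper count of these. Around the limits of the choice, the widest distance of a start-site window from its start was 0.412 kb and the closest window left out of that class lay 1.36 kb from one, while flanks of 10 and 50 kb gave 40 and 49 windows in place of 43.

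**Figure D2:**
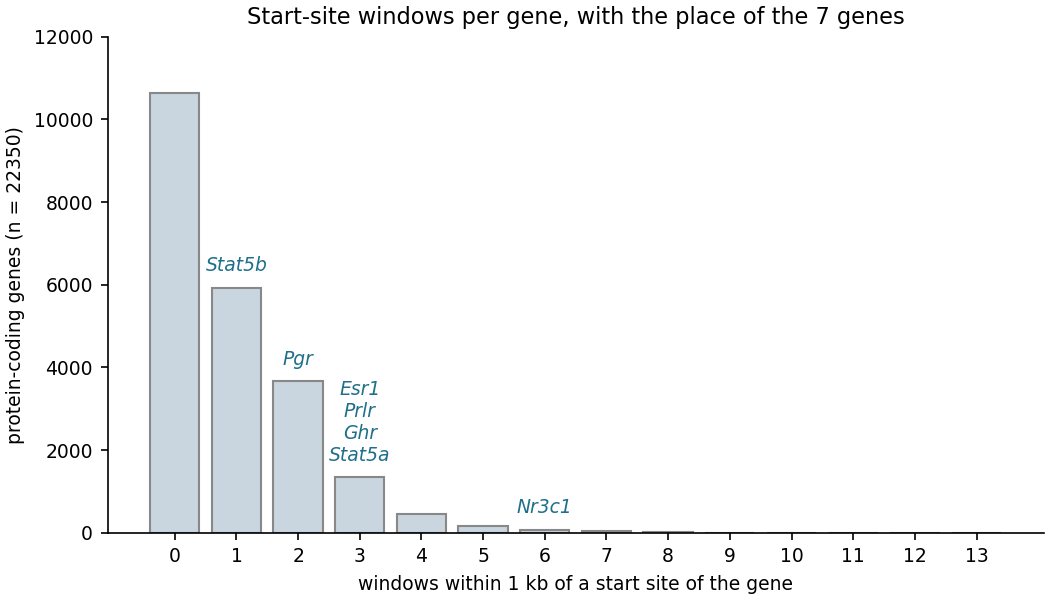
Bars give the number of protein-coding genes (y axis) with each number of start-site windows (x axis), and the names mark where the 7 genes fall. Stat5b had 1 such window, Pgr 2, Esr1, Prlr, Ghr and Stat5a 3 each and Nr3c1 6, while 10645 genes had none.

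Esr1, the oestrogen receptor alpha gene, spans chr10:5340927-5734948 on the minus strand. Of its 10 annotated start sites, 6 lay between 5734495 and 5734948 and had 2 windows, with summits at 5734109 and 5734572 in the same called peak. The second summit was 20 bp from the start of the reference coding transcript Esr1-001. The third window, with its summit at 5636394 in intron 2 of that transcript, lay 8 bp from the start shared by the transcripts Esr1-004 and Esr1-007, 98562 bp into the gene. Start sites at 5633890, 5423571 and 5410015, all of non-coding processed transcripts, had no window within 1 kb.

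Another 3 Esr1 windows sat in intron 1, with summits 6945, 9164 and 9485 bp from the nearest start, and 2 lay upstream of the gene at 1363 and 14230 bp. All 8 windows thus lay upstream of, or at, this inner start, and the remaining 295217 bp (chr10:5340927-5636143, 74.9% of the gene) had none. Between the window at the inner start and the next kept window past the 3′ end of the gene, 6 called numbers were skipped. That is an upper count for the stretch, because the span reaches beyond the gene. The first coding exon of Esr1-001, exon 3 of 10 at chr10:5633694-5634228, lay in the stretch without windows: its first coding base was 2237 bp from the closest summit.

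Pgr, the progesterone receptor gene and a target of oestrogen receptor, spans chr9:8900419-8965425 on the plus strand and had only 2 windows. Their summits at 8900808 and 8901754 both fell in exon 1 of 8, at 0.340 and 0.305 kb from the nearest start, and came from different called peaks with 1 number skipped between them. All 4 annotated start sites were within 1 kb of a window. The other 63.4 kb of the gene, 97.6% of its length, and both flanks of 20 kb had none.

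Nr3c1, which encodes the glucocorticoid receptor, spans 80.8 kb of chromosome 18 and had the most start-site windows before overlapping ones were merged. Of its windows, 6 at the outermost starts belonged to a single called peak with 6 summits, spaced 0.310 to 0.609 kb apart. Only 0.582% of protein-coding genes (130) had 6 or more start-site windows, but 5 of the 6 at Nr3c1 overlapped in a chain, and merged they made 2 regions, as many as at Esr1, Pgr, Prlr, Ghr and Stat5a. Of its 8 start sites, 6 were within 96 bp of a summit, and the other 2, at 2078 and 2091 bp, were not within 1 kb of any. Beyond these, 1 window lay in intron 1, at 26252 bp from the nearest start, and 1 lay downstream of the gene. A stretch of 50.2 kb at the 3′ end (62.1% of the gene) was without windows.

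Prlr, the prolactin receptor gene, spans chr15:10106993-10303504 on the plus strand. Of its 11 start sites, 5 lay between 10106993 and 10107536, with a called peak of 2 summits at 10107522 and 10107932. Inside the gene, the start of the coding transcript Prlr-011 at 10179315 had a window 24 bp away. The 5 other starts, among them that at 10153741 shared by 3 transcripts, had no summit within 20 kb, the closest being at 21044 bp. A further 2 windows in intron 1 had summits at 1459 and 14640 bp from the nearest start. The 3′ part of 123916 bp, 63.1% of the gene, had no window. Between the last Prlr window and the next kept one, which lay beyond the 20 kb flank, 5 called numbers were skipped. That is an upper count for the 3′ part.

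Ghr, the growth hormone receptor gene, spans chr15:3267760-3533492 on the minus strand of the same chromosome. All 8 of its windows were inside the gene. A called peak had 3 summits, at 3532352, 3532792 and 3533422. Of the 9 start sites, 8 were within 1 kb of one of these, and the coding start at 3421644 was 37675 bp from the closest summit. The other 5 windows were intronic. A pair from 1 called peak in intron 2 had summits at 3376360 and 3376666, 0.306 kb apart and about 45 kb from the nearest start, and 2 in intron 5 had summits at 3292158 and 3294725. The longest stretch without a window, 82.2 kb, lay between intron 2 and intron 1 windows. Ghr thus had windows as far as 3292158, near its 3′ end, where Esr1, Pgr and Prlr had none in the 3′ part.

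Stat5a and Stat5b lie back to back on chromosome 11 and are transcribed away from each other. Stat5b spans chr11:100642045-100712038 on the minus strand, and Stat5a chr11:100720665-100746483 on the plus strand. Stat5b had a single start-site window, with its summit at 100711496, 0.356 and 0.542 kb inside its 2 outer starts, while the start at 100683842 had none. Stat5a had 3, with summits at 100720253 and 100720626 in 1 called peak and at 100721632 in another. Of its 7 starts, 6 were within 1 kb of one of these summits, and the non-coding start at 100740333 was not. Between the 2 genes lay 1 further window with its summit at 100717163, 3502 bp from the nearest Stat5a start and 5125 bp upstream of Stat5b.

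Inside the genes, Stat5a had 1 intronic window, in intron 4 at 4035 bp from the nearest start. Stat5b had a pair from 1 called peak in intron 12, 31035 and 31544 bp from its nearest start. The 3 windows downstream of Stat5a lay inside the gene of Stat3 (chr11:100746412-100800854), a STAT that acts during involution of the gland. Their summits were 0.062, 0.147 and 0.532 kb from annotated Stat3 starts within that gene, away from both of its ends. The window downstream of Stat5b lay 0.102 kb from a start of Ghdc. The high density around the 2 Stat5 genes thus includes windows at annotated starts of neighbouring genes, and without flanks each Stat5 gene held 3.

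Because reads with more than 1 place in the genome were discarded, sequence shared between the 2 Stat5 genes cannot carry a window made of such reads. Of all stretches of 75 bases in Stat5a, 2.77% also occurred in Stat5b, where they made up 1.02%. None touched a window of Stat5a and 15 touched a window of Stat5b, and the effect of this on the window counts was not tested.

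Taking start sites one by one, 39 of the 52 of these genes (75.0%) had a window within 1 kb, against 47.0% of all start sites of protein-coding genes. Start sites were called CpG-rich when the 250 bases on either side of them held at least 50% GC and at least 0.6 of the CpG their base composition gives. Of the CpG-rich ones, 18 of 19 (94.7%) had a window here and 84.3% of 29886 did among all genes. Of the others, 21 of 33 (63.6%) had one, against 19.1% of 40044. Some of these others lay just under the CpG cutoff and beside a CpG-rich start, as at Pgr with ratios of 0.564 and 0.578. The outermost Esr1 starts, at 0.202 to 0.334, did not. Start sites of 1 gene share windows, so neither the 19 nor the 33 are independent of each other.

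Esr1 was the exception among the 7. Its only CpG-rich start site, at 5633890 in the first coding exon, held 51 CpG at 69.9% GC and was 2504 bp from the closest summit. Its 6 outermost starts held 6 to 8 CpG at 43.7 to 49.3% GC and all had a window within 1 kb. At Stat5a both kinds had a window within 1 kb, the starts at 100720665 to 100720970 with 7 to 8 CpG and those at 100721659 to 100721799 with 39 to 44. At Stat5b the starts with a window within 1 kb held 73 and 78 CpG, and the window itself contained neither start. Among all genes with at least 1 CpG-rich start, as each of these 7 has, 82.6% had a start-site window, and among the rest 17.0% did.

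**Figure D3:**
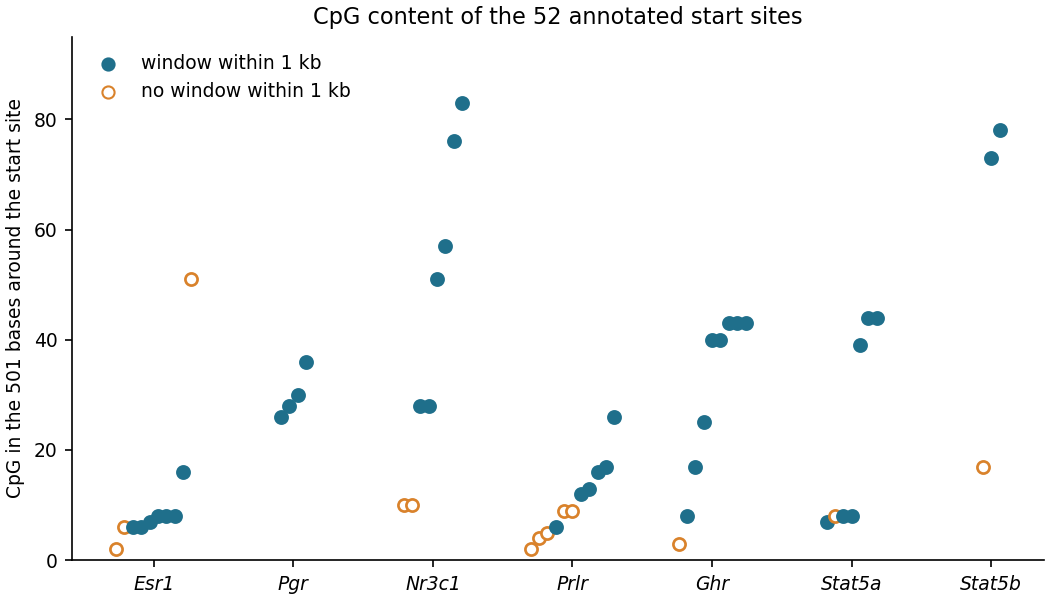
Each point is 1 of the 52 annotated start sites, with the number of CpG in that base and the 250 bases on either side of it on the y axis and the gene on the x axis. Filled points had a window within 1 kb and hollow ones did not. The hollow Esr1 point at 51 CpG stands above every other site without a window, the next of which, at Stat5b, holds 17.

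The promoter windows of these genes and their neighbours had a median of 57.2% GC and 23 CpG per 500 bp, with CpG running from 4 to 82. All promoter windows had medians of 61.6% and 34. The 18 other windows had medians of 48.4% and 4.50 CpG, against 50.4% and 7.00 for all other windows.

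Matches to the STAT palindrome TTCNNNGAA, which reads the same on both strands, were present in 5 of the 43 windows. They are shown because STAT5 is itself among these genes. Each stretch is the plus strand of mm9 with the 9 bases of the match in capitals. In the stretch from Ghr intron 2, capitals also mark the nuclear receptor core motif (AGGTCA, here on the minus strand) and an AP-1 match (TGANTCA).
Esr1 inner start, chr10:5636533-5636601: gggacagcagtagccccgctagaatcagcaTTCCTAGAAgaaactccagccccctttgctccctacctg
Esr1 intron 1, chr10:5724875-5724943: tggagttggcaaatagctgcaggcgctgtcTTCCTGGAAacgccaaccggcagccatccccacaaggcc
Esr1 outer start, chr10:5734249-5734317: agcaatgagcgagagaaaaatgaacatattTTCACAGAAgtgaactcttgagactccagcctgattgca
Prlr intron 1, chr15:10121973-10122041: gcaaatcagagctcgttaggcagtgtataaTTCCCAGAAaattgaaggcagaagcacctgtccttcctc
Ghr intron 2, chr15:3376580-3376783: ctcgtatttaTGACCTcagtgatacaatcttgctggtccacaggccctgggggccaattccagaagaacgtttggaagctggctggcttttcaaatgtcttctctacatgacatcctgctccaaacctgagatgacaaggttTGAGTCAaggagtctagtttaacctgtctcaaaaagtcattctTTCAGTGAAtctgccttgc

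Of the 5 matches, 3 were at Esr1, 1 at Prlr and 1 at Ghr, and none was in a window of Pgr, Nr3c1, Stat5a or Stat5b. The Esr1 matches read TTCCTAGAA at the inner start, TTCCTGGAA in intron 1 and TTCACAGAA at the outer start, that of Prlr read TTCCCAGAA and that of Ghr TTCAGTGAA. The share of 11.6% (exact 95% interval 3.89 to 25.1%, for counting error only) lay beside 13.6% of all windows. All 5 lay 0.101 kb or more from the summit, so none of the 43 windows had a match in its central 200 bp, where 5.38% of all windows did. The exact interval of that count of 0 reached 8.22%, so the central share did not differ detectably from that of all windows. A match is a run of letters, not a measured site of binding.

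The core motif AGGTCA, shared by many nuclear receptors, occurred in 13 of 43 windows (30.2%, 17.2 to 46.1%) and in 25.3% of all windows. One of these matches, at chr15:3376590-3376595, lay where the 2 neighbouring Ghr windows of intron 2 overlap and was counted in both. The full oestrogen response element (AGGTCA and TGACC 3 bases apart) was in none of the 43, against 0.0380% of all windows, and the steroid response element bound by glucocorticoid and progesterone receptors (GNACA and TGTNC 3 bases apart) was in none, against 1.11%. A count of 0 of 43 allows a share of up to 8.22% by the exact interval, so neither share differed detectably from that of all windows.

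AP-1 matches (TGANTCA) were in 7 windows (16.3% against 14.8%). Away from start sites they were in 6 of 18 (33.3%, 13.3 to 59.0%), against 18.7% of all such windows. These 6 were in Esr1 intron 1 and its upstream flank, downstream of Nr3c1, in Prlr intron 1 and, for 2 of them, in Ghr introns.

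The GATA factor motif AGATAA was in 5 (11.6% against 13.6%), and the forkhead motif TGTTTAC was in 1, in intron 1 of Nr3c1 (2.33% against 6.12%). A GATA match at chr10:5725215-5725220 lay where 2 Esr1 windows of intron 1 overlap and was counted in both. The strict ETS motif CCGGAA was in 2 windows (4.65%, 0.568 to 15.8%) and in 18.1% of all windows, which lay outside the interval, and no allowance was made for the 14 motifs searched. In promoter windows it was in 1 of 25 (4.00%, 0.101 to 20.4%) against 30.5%. In the central 200 bp (2.33%, 0.0589 to 12.3%, against 9.75%) and away from start sites (5.56%, 0.141 to 27.3%, against 10.7%) the share of all windows lay inside the interval.

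The loose ETS motif AGGAAG was in 25 (58.1% against 56.5%), the TEAD motif GGAATG in 10 (23.3% against 24.7%), the SP/KLF motif GGGCGG in 16 (37.2% against 37.2%), the E-box CACGTG in 2 (4.65% against 9.88%), the CTCF core CCCTC in 37 (86.0% against 82.5%) and the NFI palindrome (TTGGC and GCCAA 5 bases apart) in none (against 0.114%). For SP/KLF, promoter windows gave 56.0% (34.9 to 75.6%) against 68.8%, and windows away from start sites 11.1% (1.38 to 34.7%) against 18.2%. The 2 windows with an E-box were start-site windows of Nr3c1 that overlap each other.

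**Figure D4:**
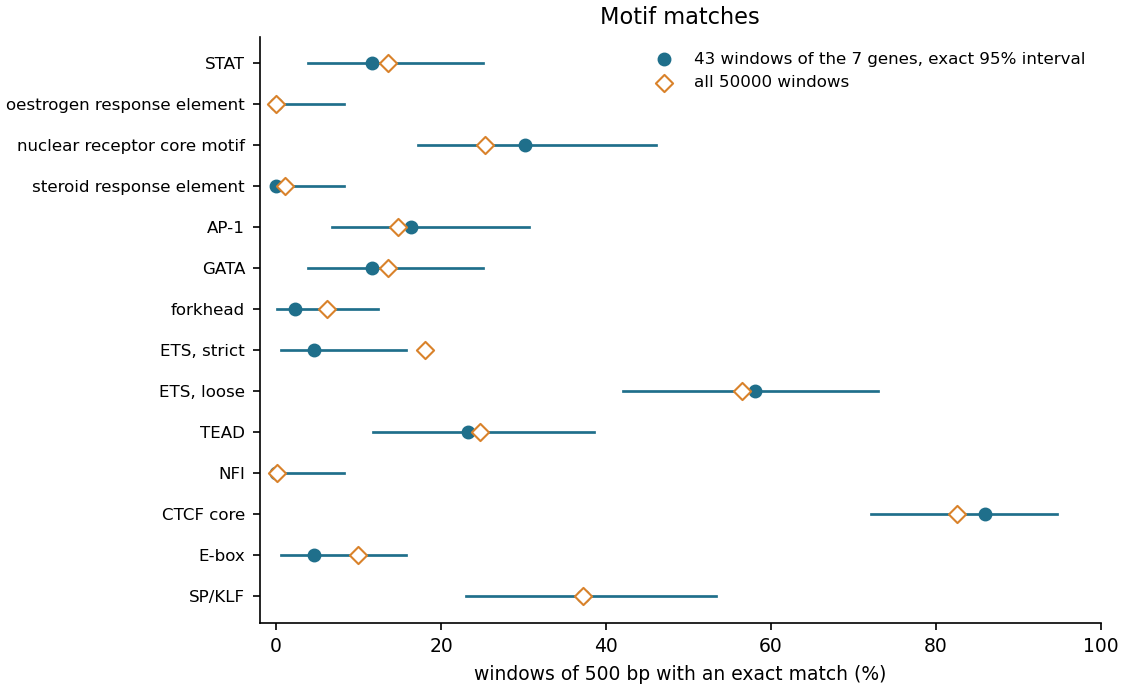
Blue points give the percent of the 43 windows with an exact match on either strand and blue lines their exact 95% intervals, which cover counting error only. The intervals treat the 43 windows as separate, although some of them overlap. Hollow diamonds give the percent of all 50000 windows. ETS, strict is CCGGAA and ETS, loose is AGGAAG. For 13 of the 14 motifs the diamond lies within the line, and for strict ETS (18.1%) it lies above it.

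Genes that act around these receptors were read from 8 lists, against the 52.4% of all protein-coding genes with a start-site window. Of 16 genes of prolactin and growth hormone signalling, 15 (93.8%) had one, with a median of 2 such windows. Socs2, an inhibitor of growth hormone signalling, and Stat3 had 6 each, and Shc1, an adaptor, had 4. Tyk2, a JAK family kinase, had none, its closest summit being 4.02 kb from a start site.

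All 15 steroid receptor co-regulators and chaperones had a start-site window. Hsp90ab1, a chaperone that holds unliganded steroid receptors, had 6, and the coactivator Ncoa2 had 4. Fkbp5, on this list and among the glucocorticoid-responsive genes below, also had 4. Of 8 transcription factors that act with oestrogen receptor, 7 (87.5%) had one. Gata3, which keeps luminal cells differentiated, had 8, Tfap2a had 5 and Tfap2c 4. Foxa1, the pioneer factor for oestrogen receptor binding, had none in its body or 20 kb flanks either, and its closest summit was 45.5 kb away.

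All 12 glucocorticoid-responsive genes had a start-site window, led by the kinase gene Sgk1 with 8, the clock gene Per1 with 5 and Fkbp5 with 4. Of 10 related nuclear receptors 8 (80.0%) had one. The mineralocorticoid receptor gene Nr3c2 had 6, the retinoic acid receptor gene Rara 5 and the oestrogen-related receptor gene Esrrg 4. The oestrogen receptor beta gene Esr2 and Esrrb had none, with their closest summits 18.9 and 51.4 kb from a start.

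Of 12 alveolar and milk genes that STAT5 is known to act on, 8 (66.7%) had a start-site window. Elf5, which directs alveolar cell fate, had 5, Akt1 had 3 and Wap, which encodes a whey protein, had 2. The casein genes Csn1s1, Csn2 and Csn3 had no window within 20 kb, with the closest summits at 92585, 120983 and 48726 bp. Of 12 genes listed as oestrogen and progesterone effectors, 4 (33.3%) had one. These were the growth gene Myc with 7, Prom1 with 3, the cyclin D1 gene Ccnd1 with 2 and the oestrogen-responsive Greb1 with 1, a gene named after its value was seen. The list includes Prom1 and Ly6a, which like Areg, Wnt4 and Tnfsf11 also stand among the markers of hormone-sensing cells below. Areg, the ligand that mediates oestrogen-driven duct growth, Wnt4 and Tnfsf11, paracrine factors downstream of progesterone, had none at a start. Their closest summits were at 35.1, 9.85 and 61.8 kb. Of the hormone genes themselves, Igf1 had 1 start-site window, and Prl and Gh, pituitary genes, had none.

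**Figure D5:**
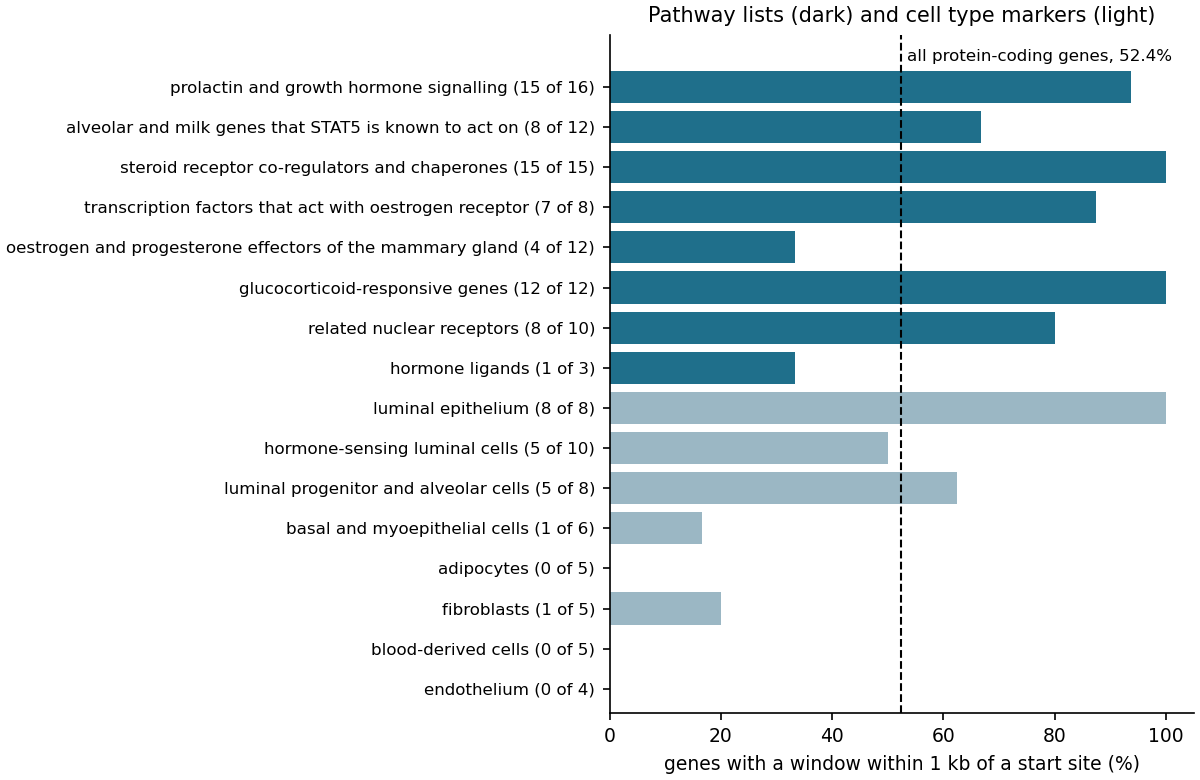
Bars give the percent of genes in each list with a start-site window, pathway lists in dark and cell type markers in light, with counts beside the names. The dashed line is the 52.4% of all protein-coding genes. The effector, hormone ligand, hormone-sensing, basal, adipocyte, fibroblast, blood and endothelial lists lie left of the line and the others right of it.

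Markers of the cells a mammary tumour can hold were set beside this. All 8 luminal epithelial markers had a start-site window, and 5 of 8 luminal progenitor and alveolar markers did. Of 10 markers of hormone-sensing luminal cells, 5 did, and Esr1, Pgr and Prlr are 3 of those 5, so this list is not independent of the genes described. Of the rest of that list, Cited1 and Prom1 had a start-site window and Foxa1, Ly6a, Wnt4, Areg and Tnfsf11 had none. Basal and myoepithelial markers had 1 of 6 (Oxtr, not Krt5, Krt14 or Trp63), fibroblast markers 1 of 5 (Pdgfra) and adipocyte, blood-derived and endothelial markers 0 of 5, 0 of 5 and 0 of 4. The paper describes the HIF1α-stained cells as EpCAM+. Away from start sites, Trp63 and Pecam1 each had 5 windows in the gene and Cd79a had 10 within 20 kb. Fabp4, Col1a2, Col3a1 and Ptprc had none within 20 kb. The part of cell composition in the windows of the 7 genes was not tested.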

How the data were processed

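Pi-ATAC profiles open chromatin together with protein levels in single fixed cells. Per the labels and the study's methods, the authors mapped reads to mm9 with Bowtie2 2.1.0, discarded reads of low quality or with several places in the genome, mitochondrial reads and duplicates (Picard 1.79), and called summits on aggregated cells with MACS2, whose version the sources used here do not give. The deposited list holds positions and names of 50000 windows, with no counts or scores, and the sources do not say if it includes CD45-stained wells. Each window's centre was taken as its summit. Genes, 69930 distinct start sites and classes came from GENCODE M1 (chromosomes 1 to 19 and X) and sequences from the genome of the same build. Python 3.11.15, pysam 0.24.0 and scipy 1.17.1 were used, scripts were tested on simulated data, and no test across samples was possible. The 7 genes were all named, and of each list up to 3 genes with the most start-site windows and up to 3 without one, except 1 that is not reported here. Of the list genes, 2 matched under older symbols. Genes, lists and motifs were chosen with earlier results of these data known.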

Additional observations from a re-analysis of the deposited data

How the results depend on the processing

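All 7 genes kept a start-site window at distances of 500 bp, 2 kb and 5 kb, by the nearest window edge, at the outermost start only and at protein-coding transcripts only. In that order, 50.7%, 54.1%, 57.9%, 52.9%, 49.2% and 51.7% of all protein-coding genes had one. With called peaks of 2 or more kept windows only, 5 of the 7 kept one, Pgr and Stat5b being lost, and the 43 windows fell to 21. Under that setting 4875 (21.8%) of all protein-coding genes were left, with 3 alveolar and milk genes, 2 oestrogen and progesterone effectors and 0 hormone ligands. It also left 9 of the 12 glucocorticoid-responsive genes and 10 of the 15 co-regulators and chaperones. With outermost starts only, 5 related nuclear receptors, 9 glucocorticoid-responsive genes and 0 hormone ligands were left. At a distance of 500 bp, 11 glucocorticoid-responsive genes and 14 co-regulators and chaperones had a start-site window. Marker lists were not recomputed. In the central 200 bp, shares of the 43 windows fell to 0% for STAT, 9.30% for the core motif AGGTCA, 2.33% for GATA, 27.9% for loose ETS, 11.6% for TEAD, 62.8% for the CTCF core and 18.6% for SP/KLF. Shorter windows hold fewer matches by construction. Away from start sites they were 33.3% for AP-1, 0% for the E-box and 11.1% for SP/KLF. Merging overlapping windows, added after the data were seen, took the 21 start-site windows to 13 regions. Counts were compared by a ratio of 1.5 and motif shares by the interval of the main share alone, and by these rules 27 recomputed values moved, each of them either given above or a count per gene. RefSeq start sites were not run, since that table is on another build. No paired analysis was possible because peaks were called after cells were aggregated and no test was made. Without read counts, depth sets an unknown limit on weak sites.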
